A study of Rattus norvegicus with 15 samples.

Results

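miR-182, miR-183 and miR-96 are 3 microRNAs (miRNAs, small RNAs that repress matching messenger RNAs) of one genomic cluster, followed here in rat sciatic nerve before and after injury. They were selected by their names on the array, rno-miR-182, rno-miR-183 and rno-miR-96, and are 3 of the 350 rat miRNAs it measures. All 3 were detected on all 15 arrays. The rats were adult males, and total RNA of their sciatic nerve was hybridised in 5 groups of 3 arrays: normal nerve without injury (day 0) and nerve taken 1, 4, 7 or 14 days after injury. The submitters' descriptions differ on whether the nerve was resected or crushed, and on whether the tissue was the proximal stump or the injury site, and "injury" is used here for either. No strain, transgene or drug is named in them. They do not say whether replicate arrays came from separate animals, so p-values cover only the spread among these arrays, which may be technical.

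The miR-183 cluster is best known from sensory cells: hair cells of the inner ear, photoreceptors, olfactory neurons and the sensory neurons of the dorsal root ganglia, whose axons run in the sciatic nerve together with motor axons. Changes in the seed of miR-96 cause hearing loss in people and mice, and in dorsal root ganglia the cluster has been linked to the control of mechanical pain sensitivity. The cluster is also expressed in some epithelia and can be induced in activated lymphocytes, where miR-182 acts on Foxo1. A nerve segment holds axons but not the cell bodies of these neurons, and Schwann cells, fibroblasts, vessels and immune cells make up most of it.

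The mature sequences are shown because the seed, bases 2 to 8 from the 5′ end and given in capitals, sets most of a miRNA's targets and tells these relatives apart. They are from RefSeq on the rat build GRCr8, 5′ to 3′, and all 3 members matched; the array's names miR-183 and miR-96 were taken as the arms now called miR-183-5p and miR-96-5p.
miR-182: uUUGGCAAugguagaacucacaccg
miR-183: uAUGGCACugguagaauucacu
miR-96: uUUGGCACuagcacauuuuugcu
The seeds of miR-182 and miR-96 differ at 1 base, those of miR-183 and miR-96 at 1 base, and those of miR-182 and miR-183 at 2. Each seed belongs to 1 of the 724 mature rat miRNAs in that table, so no pair of the 3 has the same seed. Over the whole length, miR-182 and miR-183 are the closest pair: counted from the 5′ end they have the same base at 18 of 22 positions, against 12 of 23 for miR-182 and miR-96 and 13 of 22 for miR-183 and miR-96. The longest run that miR-182 and miR-183 share is UGGUAGAA, which starts at base 9 in both.

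All 3 lie on the minus strand of rat chromosome 4 (GRCr8). The mature miR-183 is at chr4:59756106-59756127, miR-96 at chr4:59755901-59755923 and miR-182 at chr4:59752249-59752273. In the direction of transcription the hairpins follow in the order Mir183, Mir96, Mir182, and together span 3908 bases. Only 97 bases separate the hairpins of miR-183 and miR-96, whereas 3533 bases separate those of miR-96 and miR-182. No protein-coding gene overlaps this span, and the nearest on either side are Nrf1 and Ube2h. The array carries no other arm of these hairpins.

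Values below are log2 levels: the background-subtracted fluorescence of a miRNA divided by the array's own 75th percentile, so that 0 means as bright as that percentile. The percentile was taken over the 164 miRNAs detected on every array. Probes bind with different strength, so levels are compared within a miRNA and not between miRNAs. In tissue samples such as these, fewer cells of a type and less RNA per cell cannot be told apart.

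The arrays were not alike in every technical respect. Day 0, day 1 and day 4 each lay on a slide of their own, so for these groups slide and group cannot be told apart, while the 3 day 7 arrays shared a slide with day 14 replicates 1 and 2. Day 14 replicate 3 was alone on its slide, detected 172 miRNAs against 200 to 239 on the other arrays, and had a negative-control spread (SD) of 10.8 intensity units against 2.08 to 4.25. Its negative controls averaged -8.54 intensity units after background subtraction, against -1.03 to 1.19 on the other arrays. The bright corner spots of the 3 day 1 arrays were at 86.1 to 113 intensity units and those of the other arrays at 868 to 2320. The part of these differences in the results was not tested.

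miR-182 had the widest range of the 3. It was 2.00-fold higher 1 day after injury, did not differ by the test on days 4 and 7, and was 1.84-fold lower on day 14. On the uninjured arrays its log2 level was -4.49, -4.31 and -4.03. On day 1 it was -3.54, -3.10 and -3.21, and all 3 arrays lay above all 3 uninjured ones. On day 4 the levels were -3.87, -4.07 and -3.98, which overlapped day 0 only through the highest uninjured array. On day 7 they were -4.61, -4.76 and -4.53, just below the lowest uninjured array. On day 14 they were -5.19, -4.66 and -5.62, again all below day 0 but spread more widely than in any other group. The order of the group means was day 1, day 4, day 0, day 7, day 14, and the highest stood 3.67-fold above the lowest.

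**Figure D1:**
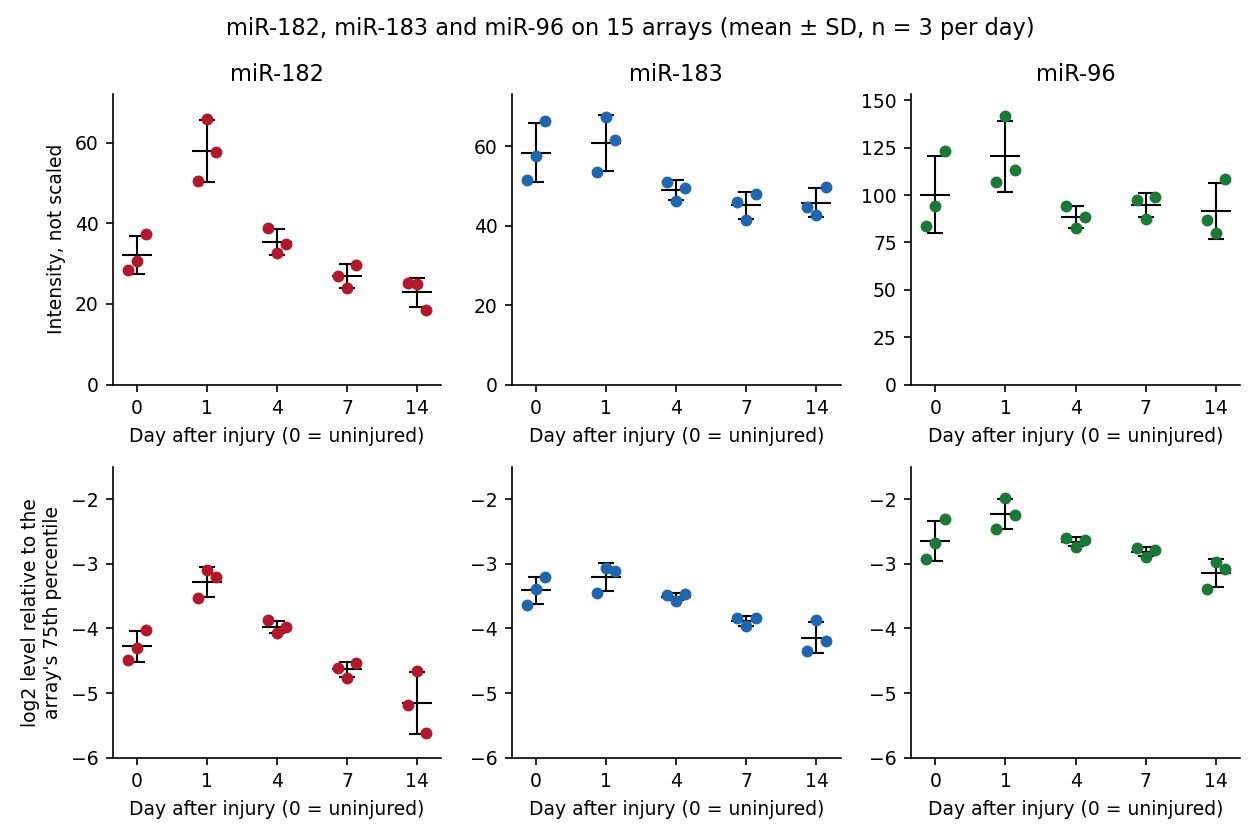
Level of miR-182, miR-183 and miR-96 on each of the 15 arrays by day after injury, as unscaled intensity (upper row) and as log2 level relative to the array's 75th percentile (lower row); points are arrays, horizontal bars group means and error bars SD (n = 3 per group). In the lower row day 1 has the highest mean and day 14 the lowest for each miRNA, and the 3 day 1 arrays of miR-182, at -3.54 to -3.10, lie above all its other arrays.

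Against day 0, miR-182 rose on day 1 by 1.00 ± 0.21 on the log2 scale (SE), which is 2.00-fold, with a limma adjusted p of 0.00128. By size this was number 16 from the top among the changes of the 231 tested miRNAs. On day 14 it fell by 0.88 ± 0.21 (1.84-fold lower, limma adjusted p = 0.00256). Without day 14 replicate 3, the array that stands apart, that fall was 0.55 and still passed the test. It was also smaller, and passed, when scaled over all miRNAs (0.52), by quantiles (0.62), with no scaling (0.49) and in the deposited value table (0.39). The day 4 difference of 0.30 ± 0.21 and the day 7 difference of -0.36 ± 0.21 did not pass (limma adjusted p = 0.216 and 0.148), with 95% intervals from -0.15 to 0.75 and from -0.80 to 0.09. Scaled by the percentile over all 350 miRNAs in place of the 164, the day 4 difference was 0.62 and passed, and that of day 7 was 0.0058. The day 4 difference also passed in the deposited value table, at 0.31, and without day 14 replicate 3, at 0.45. These comparisons share the same 3 uninjured arrays and are not independent of each other.

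miR-183 did not differ by the test from uninjured nerve on days 1 and 4 and fell on days 7 and 14. Its uninjured levels were -3.63, -3.39 and -3.21 on the log2 scale. On day 1 they were -3.45, -3.06 and -3.11 and on day 4 they were -3.48, -3.57 and -3.47, both overlapping day 0. On day 7 they were -3.84, -3.97 and -3.84, and on day 14 they were -4.35, -3.87 and -4.20, and in both groups every array lay below every uninjured one. The day 1 difference of 0.20 ± 0.14 had a 95% interval from -0.11 to 0.51 and did not pass (limma adjusted p = 0.244), although it passed at 0.38 when scaled over all 350 miRNAs, at 0.36 after quantile normalisation, at 0.46 in the deposited value table and at 0.42 without day 14 replicate 3. The day 4 difference was -0.10 ± 0.14 (limma adjusted p = 0.561), and it was 0.22 when scaled over all miRNAs, 0.0048 without day 0 replicate 3 and 0.050 without day 14 replicate 3. miR-183 fell by 0.47 ± 0.14 on day 7 (1.39-fold lower, limma adjusted p = 0.0119) and by 0.73 ± 0.14 on day 14 (1.66-fold lower, limma adjusted p = 0.000777). The day 7 call was lost without day 0 replicate 3, at -0.37, without day 14 replicate 3, at -0.31, and when scaled over all miRNAs, at -0.11; that of day 14 held in each of these refits.

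miR-96, the member whose seed changes cause deafness, was higher on day 1 and lower on day 14. It was at -2.93, -2.68 and -2.31 in uninjured nerve, at -2.45, -1.99 and -2.24 on day 1, and at -2.60, -2.73 and -2.64 on day 4. On day 7 it was at -2.75, -2.89 and -2.79 and on day 14 at -3.39, -2.97 and -3.08. Days 1, 4 and 7 overlapped day 0, and only the day 14 arrays were all below it. The day 1 rise of 0.42 ± 0.16 (1.34-fold) had a limma adjusted p of 0.0395, close to the threshold of 0.05, and in 10 of the 15 refits that each left out 1 array it no longer passed, with values from 0.27 to 0.63 over all 15. It held only without day 0 replicate 3, day 1 replicate 1 or any of the 3 day 14 arrays. miR-96 fell by 0.50 ± 0.16 on day 14 (1.42-fold lower, limma adjusted p = 0.0146), a call that was lost without day 0 replicate 3, at -0.34, without day 14 replicate 1, at -0.38, when scaled over all miRNAs, at -0.15, and with no scaling, at -0.12. On days 4 and 7 the differences were -0.01 ± 0.16 and -0.17 ± 0.16 (limma adjusted p = 0.945 and 0.375), and both turned positive, to between 0.18 and 0.31, when scaled by the percentile over all 350 miRNAs, by quantiles or as in the deposited value table. On day 4 miR-96 then passed as higher when scaled over all miRNAs (0.30, limma adjusted p = 0.0405) and by quantiles (0.26, limma adjusted p = 0.0424). That of day 4 was also positive without day 0 replicate 3 (0.15), day 4 replicate 2 (0.026) or day 14 replicate 3 (0.14).

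The members' counts stand beside those of the whole array. On day 1, 2 of the 3 passed, both higher, while 59.7% of all tested miRNAs passed in either direction, 16.5% as higher and 43.3% as lower. On day 4 none of the 3 passed, against 64.5% of all (19.9% higher and 44.6% lower); at an unadjusted p under 0.05 the limma count was also 0. Scaled over all miRNAs, 2 of the 3 passed as higher on day 4, miR-182 and miR-96. Under that scaling, 72 of the 231 tested miRNAs passed as higher and 73 as lower. On day 7, 1 of 3 passed, as lower, against 61.9% of all and 45% as lower. On day 14 all 3 passed as lower, against 67.1% of all and 50.2% as lower. The groups did not overlap for 1 member on day 1, 0 on day 4, 2 on day 7 and 3 on day 14, beside 53.7%, 77.1%, 74.9% and 62.8% of all tested miRNAs.

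**Figure D2:**
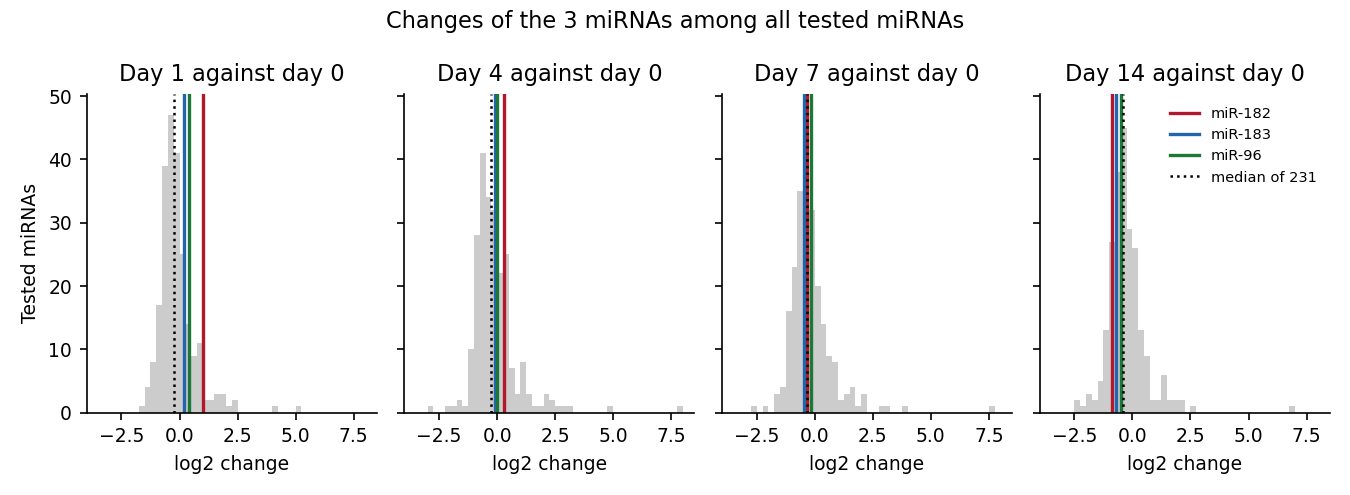
Distribution of the log2 change of the 231 tested miRNAs against day 0 on days 1, 4, 7 and 14, with the 3 members as coloured lines and the median of all tested miRNAs as a dotted line. On day 1 all 3 lie right of the median of -0.26, and on day 14 they lie left of 0, where 50.2% of tested miRNAs passed as lower. The miR-96 differences on days 4 and 7 turn positive under 3 other scalings, and those of miR-183 on day 4 and miR-182 on day 7 under 1.

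The direction of these shares depends on the scaling and on 1 array. Among all tested miRNAs the median change was -0.26 on day 1, -0.26 on day 4, -0.32 on day 7 and -0.40 on day 14, and under the percentile over all miRNAs it was -0.08, 0.05, 0.04 and -0.05. Without day 14 replicate 3 it was -0.04, -0.11, -0.16 and -0.27, and the split of calls was 57 higher and 68 lower on day 1, 63 and 87 on day 4, 55 and 85 on day 7 and 45 and 92 on day 14. With all arrays, the split on day 1 was 38 higher and 100 lower, but 54 and 85 under that percentile, 56 and 86 under quantile normalisation and 48 and 61 in the deposited value table. On day 14 it was 39 higher and 116 lower, but 72 and 54, 60 and 79, and 54 and 69 under the same 3, and 64 and 41 with no scaling. On day 4 it was 46 and 103, but 72 and 73, 67 and 85, and 61 and 76, and on day 7 it was 39 and 104, but 78 and 62, 59 and 74, and 55 and 61. Set against the median of all tested miRNAs, miR-182 stood 1.25 above it on day 1 and 0.47 below it on day 14. miR-183 stood 0.46 above and 0.32 below on the same days, and miR-96 0.67 above and 0.10 below.

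Between consecutive times, the mean of each of the 3 was lower at each later time from day 1 on, though with no scaling that of miR-96 was 0.10 higher on day 7 than on day 4 and that of miR-183 0.022 higher on day 14 than on day 7. From day 1 to day 4, miR-182 fell by 0.70 ± 0.21 (limma adjusted p = 0.0147) and miR-96 by 0.43 ± 0.16 (limma adjusted p = 0.0423), and neither overlapped; 48.9% of tested miRNAs passed (26% higher and 22.9% lower) and 60.6% did not overlap. miR-183 differed by -0.30 ± 0.14, also without overlap but short of the threshold (limma adjusted p = 0.0953); it passed without day 1 replicate 1, at -0.42, and without day 14 replicate 3, at -0.37. The fall of miR-182 lost its call without day 1 replicate 2, at -0.60, or without day 4 replicate 2, at -0.65, and that of miR-96 in 8 of the 15 refits, those without day 1 replicate 2 or 3 or any day 4 or day 7 array, with values from -0.54 to -0.31 over all 15. From day 4 to day 7 the differences were -0.66 for miR-182, -0.37 for miR-183 and -0.16 for miR-96, and none passed (limma adjusted p = 0.114, 0.203 and 0.615). In that comparison 4.76% of all tested miRNAs passed (1.3% higher and 3.46% lower), and 2 of the 3 had an unadjusted p under 0.05. miR-182 passed there without day 14 replicate 2 or 3, at -0.66 and -0.65. The day 7 arrays lay below the day 4 arrays for all 3 members, and the groups did not overlap for 50.6% of tested miRNAs. From day 7 to day 14 the differences were -0.52, -0.26 and -0.34 and none passed (limma adjusted p = 0.119, 0.233 and 0.194), with 10.8% of all passing (4.33% higher and 6.49% lower); 1 of the 3 had an unadjusted p under 0.05. Without day 14 replicate 2, miR-182 passed, at -0.77. Within the slide that holds both of these days, leaving day 14 replicate 3 out, they were -0.29, -0.23 and -0.37 (limma adjusted p = 0.347, 0.424 and 0.176). The direction of calls over the whole array again moved with the scaling: from day 1 to day 4 there were 60 higher and 53 lower, but 83 and 45 when scaled over all miRNAs. From day 4 to day 7 there were 3 and 8, but 11 and 9 over all miRNAs, 18 and 14 by quantiles and 22 and 5 with no scaling. From day 7 to day 14 there were 10 and 15, but 31 and 25 over all miRNAs and 69 and 7 with no scaling. Single arrays moved these counts too: the 11 calls from day 4 to day 7 became 3 or 4 without any 1 array of either day and 17 without day 14 replicate 3, and the 25 from day 7 to day 14 became 8 to 10 without any 1 day 7 array and 43 without day 14 replicate 1.

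Over all 5 groups, each member changed by the limma F test (adjusted p = 4.68e-05 for miR-182, 0.000385 for miR-183 and 0.00239 for miR-96), as did 84.4% of tested miRNAs; with no scaling miR-96 did not pass (adjusted p = 0.117). In the order of its means, the neighbours day 1 and day 4 of miR-182 passed the test, and those from day 4 to day 0, day 0 to day 7 and day 7 to day 14 did not, though the day 0 and day 7 arrays did not overlap. For miR-96 the neighbours day 1 and day 0 passed and no later pair did, though the arrays of days 4 and 7 and of days 7 and 14 did not overlap. Of all tested miRNAs, 74.9% did not overlap between days 0 and 7, 50.6% between days 4 and 7 and 38.1% between days 7 and 14. For miR-183 no neighbouring pair passed, and the arrays of days 4 and 7 did not overlap: its means ran -3.21 on day 1, -3.41 on day 0, -3.51 on day 4, -3.88 on day 7 and -4.14 on day 14.

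The members lie in 1 cluster, so the shift between days of the difference between their log2 levels was also followed. Such a difference on 1 array is free of the array's scaling factor, and its size on any day also holds the binding of the probes, so only its shifts between days are read. miR-182 less miR-183 was -0.87 ± 0.05 in uninjured nerve (SD, n = 3) and -0.07 ± 0.03 on day 1, a gain of 0.79 with no overlap between the groups. It was -0.47 ± 0.06 on day 4, -0.75 ± 0.05 on day 7 and -1.02 ± 0.36 on day 14, so the mean difference was lower at each later time; without day 14 replicate 3 the day 14 value stood 0.055 above day 0 in place of 0.15 below it. miR-182 less miR-96 went from -1.63 ± 0.08 on day 0 to -1.05 ± 0.07 on day 1, -1.32 ± 0.04 on day 4, -1.82 ± 0.07 on day 7 and -2.01 ± 0.47 on day 14. With 3 arrays against 3, the exact permutation test cannot go below p = 0.1, so no difference between members can pass the threshold here. Both of these pairs reached that value on days 1, 4 and 7, with no overlap with day 0 (0.15 after adjustment over 12 such comparisons). Over the alternative settings the day 1 gain ran from 0.57 to 0.98 for miR-182 less miR-183 and 0.37 to 0.76 for miR-182 less miR-96. These ranges leave aside 1 probe of miR-182 that read near background. miR-183 less miR-96, the pair with adjacent hairpins, was -0.77 ± 0.11 on day 0, -0.98 ± 0.10 on day 1, -0.85 ± 0.02 on day 4, -1.07 ± 0.02 on day 7 and -0.99 ± 0.11 on day 14. Its shifts of -0.30 on day 7 and -0.22 on day 14 also reached the lowest possible p of the permutation test, with no overlap with day 0. On days 1 and 4 this pair overlapped day 0. How often pairs of other miRNAs separate from day 0 in this way was not measured. Of single tested miRNAs, 53.7% on day 1 to 77.1% on day 4 did not overlap day 0.

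**Figure D3:**
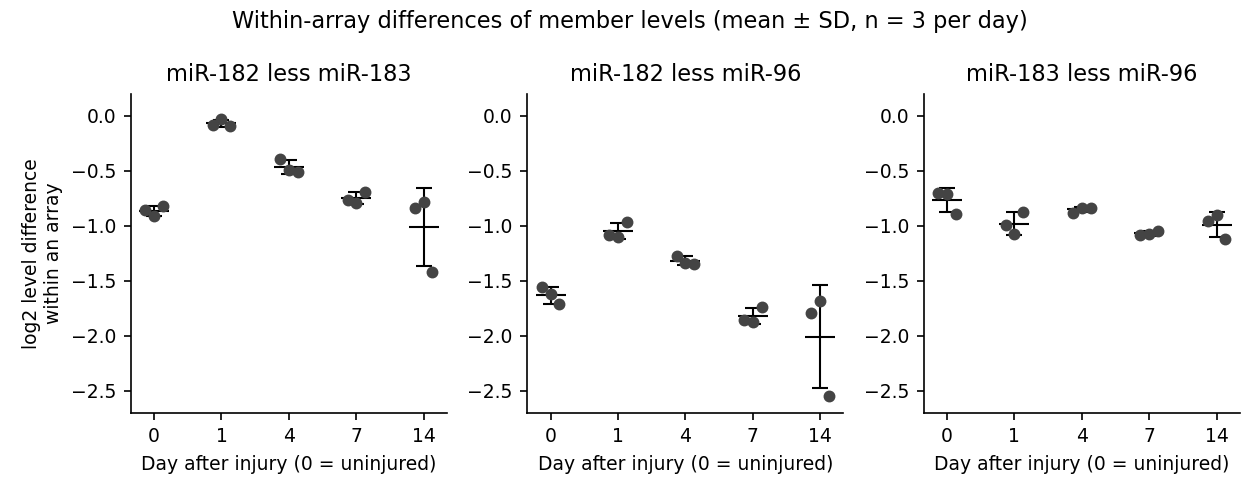
Differences between the log2 levels of 2 members on the same array, by day (points are arrays, bars group means, error bars SD, n = 3). The day 1 arrays of miR-182 less miR-183 all lie above those of day 0, and the spread on day 14 comes with replicate 3, at -1.42 for miR-182 less miR-183 and -2.54 for miR-182 less miR-96.

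The change of miR-182 was read by 2 of its 3 probes. Before scaling, its background-subtracted intensity was 28.3, 30.5 and 37.5 on the uninjured arrays, 50.5, 65.8 and 57.7 on day 1 and 25.1, 24.8 and 18.6 on day 14, so day 1 was higher without any scaling too. Of its 3 probes, the one numbered 1 read between -9.42 and 3.38 intensity units and exceeded the negative controls by 3 SD on 0 of 15 arrays. Probe 2 read 4.85 to 44.9 and exceeded them on 14 arrays, and probe 3 read 57.8 to 150 and did so on all 15. Probe 2 averaged 17.9 ± 0.56 on day 0 and 37.1 ± 6.96 on day 1 (SD, n = 3), and probe 3 averaged 77.4 ± 13.8 and 135 ± 16.8. Fitted alone, both rose on day 1, by 1.18 (limma adjusted p = 0.0207) and 0.95 (limma adjusted p = 0.000611), and fell on day 14, by 1.19 and 0.74. Probe 1 alone gave 1.44 on day 1 and -1.17 on day 14, neither passing the test. On the 3 day 14 arrays probe 3 read 59.7 to 60.3, while probe 2 read 4.85 to 14.9 and probe 1 read -9.42 to 0.71.

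The 2 probes of miR-183 gave changes of 0.20 and 0.20 on day 1 and -0.81 and -0.68 on day 14. The 2 probes of miR-96 gave 0.45 and 0.39 on day 1 and -0.52 and -0.49 on day 14, and the first of the 2 passed on day 1 (limma adjusted p = 0.0303) while the second did not (0.0547). All 4 of these probes exceeded the negative controls by 3 SD on all 15 arrays.

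**Figure D4:**
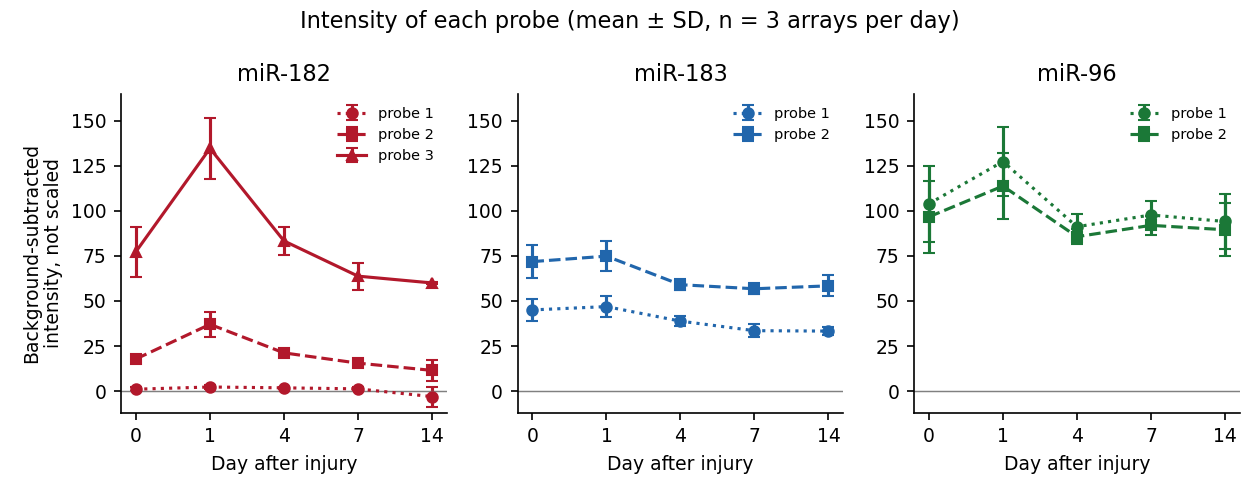
Background-subtracted, unscaled intensity of each probe of the 3 members by day (markers are means, error bars SD, n = 3 arrays per day). Probe 1 of miR-182 has means of 1.09 to 2.32 on days 0 to 7 and -2.99 ± 5.59 on day 14. Probe 3 of miR-182 goes from a mean of 77.4 on day 0 to 135 on day 1, and the probes of miR-183 stay between 29.4 and 81.8 on all arrays.

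The miRNAs whose level was most like that of each member over the 15 arrays were found by Pearson's r, which is a description: all values share each array's scaling, and the low range of signal near background. For miR-182 they were miR-124 (r = 0.95), a miRNA abundant in neurons, then miR-183 (0.92), miR-96 (0.91), miR-137 (0.90) and miR-494 (0.88). For miR-183 they were miR-185 and miR-96 (0.94 each), miR-210 (0.93), miR-598-3p and miR-466b (0.92 each), with miR-182 in the next place. For miR-96 they were miR-183 (0.94), miR-124 (0.92), miR-182 (0.91), miR-137 (0.88) and miR-425 (0.87). miR-124 rose by 0.92 on day 1 (limma adjusted p = 0.000376). It differed by 0.32, -0.10 and -0.32 on days 4, 7 and 14, none of which passed. Scaled over all miRNAs, these were 0.63, 0.27 and 0.04 and the first passed. The day 4 difference also passed by quantiles (0.44), in the deposited value table (0.50) and without day 14 replicate 3 (0.46). With no scaling it was 0.16 and did not pass.

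Neuronal miRNAs are the list nearest to the cluster's known site. Of 10 in a list of neuronal miRNAs, 8 were tested and miR-7b and miR-129 were not detected on any array. On day 1, 3 of the 8 rose and 3 fell, on day 4, 2 rose and 3 fell, on day 7, 1 rose and 4 fell, and on day 14, 0 rose and 5 fell. Of all tested miRNAs, 16.5%, 19.9%, 16.9% and 16.9% passed as higher on these days. As lower, 43.3%, 44.6%, 45% and 50.2% passed. The list's median change was -0.03, -0.03, -0.26 and -0.77 on days 1, 4, 7 and 14, beside -0.26, -0.26, -0.32 and -0.40 for all tested miRNAs; scaled over all miRNAs it was 0.15, 0.28, 0.10 and -0.41, with 3 rising and 2 falling on day 1 and 2 rising and 4 falling on day 14. On day 1 the split was 3 rising and 0 falling, with a median of 0.18, both in the deposited value table and without day 14 replicate 3. miR-137 rose by 0.80 on day 1 and fell by 0.98 on day 14 (limma adjusted p = 0.00127 and 0.000250); in the deposited value table its day 1 difference of 1.07 did not pass (limma adjusted p = 0.283) and the day 14 value was -2.15. miR-7a rose by 0.64 on day 1, 1.21 on day 4 and 1.01 on day 7. miR-9, made in neural progenitors and neurons, fell by 0.51 on day 1 and 1.00 on day 14 (limma adjusted p = 0.0101 and 9.23e-05); its day 1 call was lost after quantile normalisation, at -0.19, in the deposited value table, at -0.12, and without day 14 replicate 3, at -0.30.

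The cluster is also known from epithelia and lymphocytes, and lists of epithelial and leukocyte miRNAs were measured. Of 7 epithelial miRNAs, miR-200a, miR-200b, miR-200c, miR-141 and miR-429 were not detected on any array. The other 2, miR-203 and miR-205, gave 1 call in the 4 comparisons with day 0, a fall of miR-205 by 0.32 on day 4. That call was lost when scaled over all miRNAs and without day 14 replicate 3. On day 14 both rose when scaled over all miRNAs, by quantiles and with no scaling. In the deposited value table and without day 14 replicate 3, 1 of the 2 rose on that day. The summed level of the 7, in units of the array's 75th percentile, was 0.0991 to 0.108 on day 0 and 0.0925 to 0.113 on day 1. Of 5 leukocyte miRNAs on the array, 3 rose on day 1 and none fell, with a summed level of 3.17 to 4.26 against 1.62 to 1.92 on day 0. That sum was 2.87 to 3.23 on day 4, 2.90 to 3.20 on day 7 and 2.20 to 2.81 on day 14. These 3 rises on day 1 passed under all 4 other scalings. miR-223, a myeloid miRNA best known from neutrophils, rose by 1.79 on day 1, 1.14 on day 4 and 0.80 on day 7 and differed by 0.21 on day 14 (limma adjusted p = 0.286). miR-142-3p, found across blood cell lineages, rose by 0.82, 1.16, 1.54 and 1.28 on the same days. In the same list miR-150 differed by -0.09 on day 1, which did not pass. It fell by 0.60, 0.73 and 0.69 on days 4, 7 and 14 (limma adjusted p = 0.000458, 9.6e-05 and 0.000194). On each of these 3 days, 3 of the 5 rose and 1 fell. Of all tested miRNAs, 16.5% passed as higher on day 1 and 16.9% to 19.9% at later times. The split of the 5 on day 4 was 4 and 0 by quantiles and in the deposited value table, and on day 14 it was 3 and 0 with no scaling.

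The remaining lists of cell types gave these values. The erythrocyte pair miR-451 and miR-144 summed to 0.734 to 3.98 on day 0 and 3.04 to 9.53 on day 1, when miR-451 rose (limma adjusted p = 0.0437; the call was lost with no scaling). Of 5 miRNAs of myelinating glia and the melanocyte lineage, 4 were tested and 3 fell on each of the 4 days (1 to 3 under the other 4 scalings); miR-338, which is abundant in myelinating Schwann cells and was detected on all 15 arrays, fell by 0.83 on day 1 and fell by 1.27 on day 4. Their sum was 16.9 to 25.9 on day 0, 11.1 to 14.7 on day 1 and 8.74 to 13.9 at later times. Of 5 muscle miRNAs, 0 rose on any day and 1, 2, 2 and 1 fell on days 1, 4, 7 and 14, and the sum ranged from 0.738 to 16.3 among the uninjured arrays alone. Of 3 neuroendocrine miRNAs, miR-375 and miR-7b were not detected on any array. The other, miR-7a, rose on days 1, 4 and 7 with the values given above. Both miR-7a and miR-7b are also in the neuronal list. The part of any of these cell types in the members' changes was not tested.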

How the data were processed

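Total RNA from 15 nerve samples was hybridised to 1-colour rat miRNA arrays. Per the file headers, the authors extracted spots with Agilent Feature Extraction 10.7.3.1. The deposited files give each spot's background-subtracted intensity, not scaled between arrays, with flags for detection and outliers. A deposited value table on a log2 scale (its normalisation is not given in the sources used here) served as an alternative and holds 230 of the 231 tested miRNAs.

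Control and outlier spots were left out, and spots were averaged per probe, then probes per miRNA. Scaling was by each array's 75th percentile, taken over 164 miRNAs with detection on every array. Values were floored at 0.000587 (log2 of -10.73), the lowest scaled value of a detected miRNA, and log2-transformed. The 231 miRNAs detected on every array of some group were tested with limma 3.58.1 (R 4.3.3) in a model of the 5 group means, two-sided, with Benjamini-Hochberg adjustment over all tested miRNAs and a threshold of 0.05. The limma step was tested on simulated data. Differences between members used exact permutation tests (scipy 1.17.1), and n is 3 arrays per group, which limits the precision. Named miRNAs are the members and the 5 closest to each by Pearson's r. Cell type lists had up to 2 members each given by value, taken from the 2 with the smallest F-test p in these same data. Their p-values are therefore not those of markers chosen beforehand. miR-9 and miR-150 were added after their values were seen. The members and lists were chosen with earlier results of these data known. Alternatives were other scalings, background corrections, floors, filters, single probes, slide and replicate blocks and leaving out each array; the mean spot signal was not used here, so the normexp correction took the median signal.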

Additional observations from a re-analysis of the deposited data

How the results depend on the processing

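The rise of miR-182 on day 1 and its fall on day 14 passed the limma test under every scaling, correction, filter and left-out array, but not for its probe 1 alone, which was near background (1.44 and -1.17). Leaving out 1 array gave 0.89 to 1.21 for the rise and -1.13 to -0.55 for the fall. Some other settings lay outside these ranges. The rise was 0.74 under normexp and 1.28 in the deposited value table. The fall was -0.54 under normexp, -0.52 scaled over all miRNAs, -0.49 with no scaling and -0.39 in the deposited value table. The fall of miR-183 on day 14 passed under all settings run. For each change given here the cause was not tested.

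Scaling over all 350 miRNAs gave, for miR-182, 0.62 on day 4 (now passing) and 0.0058 on day 7 (reversed); for miR-183, 0.38 on day 1 (now passing), 0.22 on day 4 (reversed) and -0.11 on day 7 (lost); and for miR-96, 0.30 and 0.19 on days 4 and 7 (both reversed, day 4 now passing as higher), -0.15 on day 14 and -0.29 from day 1 to day 4 (both lost). Quantile normalisation gave, for miR-182, -0.53 from day 4 to day 7; for miR-183, 0.36 on day 1 and -0.48 from day 1 to day 4; and for miR-96, -0.47 from day 7 to day 14 (all 4 now passing), and reversed miR-96 on day 4 (0.26, now passing as higher) and day 7 (0.18). The deposited value table gave 0.31 for miR-182 on day 4 and -0.59 from day 4 to day 7, 0.46 for miR-183 on day 1 and -0.59 from day 1 to day 4, and -0.57 for miR-96 from day 7 to day 14 (all now passing), and reversed miR-96 on day 4 (0.31) and day 7 (0.24). With no scaling, miR-183 gave -0.31 from day 1 to day 4 (now passing) and 0.022 from day 7 to day 14 (reversed), and miR-96 gave 0.27 on day 1 and -0.12 on day 14 (both lost), 0.10 from day 4 to day 7 (reversed) and an F of 2.38 (lost). The software's total gene signal lost the day 7 call of miR-183 (-0.47), and testing all 350 miRNAs lost those of miR-96 on day 1 (0.42) and from day 1 to day 4 (-0.43). Of single probes, probe 1 of miR-182 reversed day 7 (0.32) and lost day 1 to day 4 (-0.14), probe 2 lost the latter too (-0.78), probe 3 passed from day 4 to day 7 (-0.64), and probe 2 of miR-96 lost day 1 (0.39) and day 1 to day 4 (-0.39).

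Leaving out 1 array at a time gave these ranges. miR-182 ran from 0.19 to 0.45 on day 4, -0.47 to -0.20 on day 7, -0.82 to -0.60 from day 1 to day 4, -0.71 to -0.59 from day 4 to day 7 and -0.77 to -0.35 from day 7 to day 14. miR-183 ran from 0.092 to 0.42 on day 1, -0.21 to 0.050 on day 4, -0.58 to -0.31 on day 7, -0.42 to -0.23 from day 1 to day 4 and -0.39 to -0.15 from day 7 to day 14. miR-96 ran from 0.27 to 0.63 on day 1, -0.16 to 0.15 on day 4, -0.31 to -0.0029 on day 7, -0.65 to -0.34 on day 14, -0.54 to -0.31 from day 1 to day 4 and -0.44 to -0.21 from day 7 to day 14. The difference miR-182 less miR-183 ran from -0.26 to 0.055 on day 14.

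Differences within an array reversed for miR-182 less miR-183 on day 7 under quantile normalisation (-0.0072) and on day 14 under normexp (0.018), total gene signal (0.093) and the deposited table (0.16), and for miR-182 less miR-96 on day 4 under quantile normalisation (-0.021) and the deposited table (-0.0091) and on day 7 for probe 1 (0.49). Called miRNAs from day 4 to day 7 numbered 11, against 20, 32, 27 and 22 under the 4 other scalings in the order above with no scaling before the deposited table, 6 under normexp, 7 for total gene signal, 3 with no filter, 5 for miRNAs detected on all arrays and 3 to 17 with 1 array left out. From day 7 to day 14 they numbered 25, against 56 over all miRNAs, 76 with no scaling, 13 within the slide of both groups and 8 to 43 with 1 array left out. The replicate numbers did not pair the samples: arrays with the same number correlated at -0.74 to 0.64 in their deviations, and 4 of 15 arrays went best with their own number. With the replicate number as a block, the day 1 rise of miR-182 was 1.00 (limma adjusted p = 0.00251) and no member's call changed. The slide as a random block also changed none. Days 0, 1 and 4 each lay on a slide of their own, so this block could not separate slide from group there. The correlation within slides was estimated at -0.044. The floor at the median of the arrays' lowest values was chosen after seeing the data and changed no member's call. Signal near background limits miR-182 most, and 3 arrays per group limit all results.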
